A study of Homo sapiens with 8 samples.

Results

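The 40 genes described here code for the machinery that copies DNA and for E2F factors and E2F-controlled genes. They were chosen by symbol as rows of the expression table, the row of highest mean being taken where a symbol was repeated, and are 40 of 31402 entries. Before S phase, CDC6 and CDT1 load rings of the MCM2 to MCM7 helicase onto origins, which is called licensing, and GINS and MCM10 then help to switch the helicase on. DNA polymerases, primase, the PCNA clamp and its loader copy both strands, and ribonucleotide reductase supplies the nucleotides. E2F1, E2F2 and E2F3 are activators of most of these genes late in G1, E2F5 is usually a repressor that works with pocket proteins, and the retinoblastoma protein holds the activators in check.

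Expression was measured by RNA sequencing of total RNA in KCL-22, an established line of chronic myeloid leukaemia in blast crisis, positive for the fusion kinase BCR-ABL. All cells carried a ClonTracer DNA barcode library, and the study compared cells resistant to BCR-ABL inhibitors. The catalytic-resistant group held a population grown out under 2.5 µM imatinib (27 days), a population grown out under 0.3 µM nilotinib (27 days), and Clone 3, taken from the imatinib-resistant population and resistant to both drugs. Imatinib and nilotinib bind at the kinase's catalytic site. The GNF2-resistant group held a population grown out under 2.5 µM GNF-2 (21 days), an allosteric inhibitor, and Clones 1 and 2, taken from that population. Clone 4 also came from the GNF-2-resistant population and resisted all 3 inhibitors. The vehicle population received 0.1% DMSO for 7 days. No catalytic inhibitor had been given to Clones 1, 2 or 4, and no allosteric inhibitor to Clone 3. Each clone was isolated by FACS sorting and expanded, and every condition had 1 library, so a value of one condition has no replicate of its own. Libraries of a group are different populations and clones, and nothing in the labels says that they came from separate cultures grown side by side, so p-values measure only the spread between these libraries. Clones 1, 2 and 3 are also grouped with the population they came from, so the libraries of a group are not independent of each other. The vehicle library was taken at a different day from the resistant populations, so days in culture and resistance cannot be told apart.

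The values were the authors' FPKM, fragments on a transcript divided by its length and by the library's mapped fragments, 1 per gene and library. Genes with a mean of at least 1 FPKM over the 8 libraries were tested, 11843 in all, and all 40 members were among them. Differences are on the log2 scale of FPKM + 1, which understates the change of low genes. Depth was estimated roughly from a peak among the low values of 612 intronless genes. That peak held only 10 genes in Clone 4 and at most 20 in any library. The estimate was 19500000 fragments in the GNF-2 population and Clone 4 and up to 40700000 in Clone 1. Of 11 markers of the line's myeloid blast type, ABL1 lay between 65.3 and 110.5 FPKM, BCR between 58.8 and 105.7 FPKM, ANPEP between 14.6 and 78.3 FPKM and GATA2 between 145.1 and 286.9 FPKM. KIT and MPO stayed at or under 0.40 FPKM, CD33 at or under 3.35 FPKM, GATA1 at or under 8.55 FPKM (0 in Clone 3) and CD34 at or under 12.2 FPKM. SPI1 was listed at 0 in Clones 3 and 4 and lay between 7.50 and 18.2 FPKM in the other resistant libraries, against 29.9 FPKM in vehicle, and PTPRC was 16.5 FPKM (Clone 4) to 66.04 FPKM in the resistant libraries, against 88.0 FPKM in vehicle. The summed level of the 11 was 376.8 FPKM (Clone 2) to 570.8 FPKM (Clone 4) in the resistant libraries, against 593.4 FPKM in vehicle. Of the lymphoid markers reported here, CD3D was listed at 0 in Clone 2 and reached 12.4 FPKM in the other resistant libraries, against 32.0 FPKM in vehicle, CD79A was 17.4 to 98.9 FPKM in the resistant libraries, against 28.6 FPKM in vehicle, and CD3E and MS4A1 were at or under 0.30 FPKM. SPI1, PTPRC and CD3D were thus highest in vehicle, and their part in the members' levels was not tested. Of 5 stromal, endothelial and epithelial markers, COL1A2 was highest at 4.61 FPKM in Clone 2, where PECAM1 was 1.92 FPKM, and KRT19 was listed at 0 throughout. In bulk RNA, fewer cells in S phase and less RNA per cell cannot be told apart.

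Promoters are shown first because the E2F site is what most of these genes are known to share. RefSeq windows on GRCh38.p14, from 250 bases before to 50 after a transcript's start, were matched for 33 of the 40 members. A site here means TTTCCCGC, TTTCGCGC, TTTGCCGC or TTTGGCGC on either strand. It was found for 20 of the 33 members (60.6%), against 6.88% of 9257 tested genes with a window and 3.99% of all 27305 genes. CCAAT, the NF-Y letters, was found on either strand for 63.6% of members and 43.3% of tested genes, and GGGCGG, the GC box, for 78.8% of members and 77.7% of tested genes. The windows below run from 150 bases before to 20 after the start and are those of CDT1 (chr16:88803639-88803808, plus strand), DTL (chr1:212035598-212035767, plus strand), MCM3 (chr6:52284723-52284892, minus strand), PCNA (chr20:5126603-5126772, minus strand), POLA1 (chrX:24693768-24693937, plus strand), UHRF1 (chr19:4909351-4909520, plus strand) and E2F1 (chr20:33686366-33686535, minus strand). They are shown because CDT1 and DTL had lower and MCM3, PCNA, POLA1 and UHRF1 higher means in the clones than in the resistant populations, and because E2F1 codes for a factor that binds such sites. Capitals mark a site in the strand printed, which for CDT1, PCNA, POLA1, UHRF1 and the first of the pair in E2F1 is the reverse complement of the letters listed.
CDT1: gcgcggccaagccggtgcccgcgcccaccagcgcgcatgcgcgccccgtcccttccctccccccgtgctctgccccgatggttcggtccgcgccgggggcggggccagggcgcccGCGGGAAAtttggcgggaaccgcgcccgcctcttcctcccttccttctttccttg
DTL: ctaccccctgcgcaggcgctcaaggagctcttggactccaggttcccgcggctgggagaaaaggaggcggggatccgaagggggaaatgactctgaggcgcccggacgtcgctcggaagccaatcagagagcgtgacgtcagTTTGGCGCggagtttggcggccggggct
MCM3: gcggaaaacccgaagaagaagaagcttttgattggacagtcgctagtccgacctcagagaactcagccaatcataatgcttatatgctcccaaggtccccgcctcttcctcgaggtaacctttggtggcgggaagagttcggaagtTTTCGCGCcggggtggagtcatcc
PCNA: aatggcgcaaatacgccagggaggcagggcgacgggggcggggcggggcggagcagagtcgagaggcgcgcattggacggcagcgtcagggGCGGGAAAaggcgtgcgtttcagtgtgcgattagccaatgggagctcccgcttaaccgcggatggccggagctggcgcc
POLA1: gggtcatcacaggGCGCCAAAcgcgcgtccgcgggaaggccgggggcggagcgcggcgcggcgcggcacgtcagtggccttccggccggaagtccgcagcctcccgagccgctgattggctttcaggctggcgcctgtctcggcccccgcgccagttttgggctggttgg
UHRF1: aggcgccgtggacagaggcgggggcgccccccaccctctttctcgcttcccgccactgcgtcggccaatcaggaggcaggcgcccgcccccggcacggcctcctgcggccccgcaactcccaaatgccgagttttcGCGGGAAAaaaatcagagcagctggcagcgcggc
E2F1: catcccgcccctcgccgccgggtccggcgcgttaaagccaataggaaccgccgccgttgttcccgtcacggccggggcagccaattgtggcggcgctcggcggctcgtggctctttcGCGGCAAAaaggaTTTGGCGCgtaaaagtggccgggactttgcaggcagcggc
Counting the base before the start as -1, the site begins at -35 in CDT1, -8 in DTL, -4 in MCM3, -59 in PCNA, -137 in POLA1, -14 in UHRF1, and -33 and -20 in E2F1. MCM3 has another site further upstream, at -174, outside the bases printed, and a second RefSeq start of UHRF1, not shown, has a site at -160 from that start. All windows printed hold a site, and those other than E2F1 were chosen from both sides of the comparison of clones. Whether the site goes with either direction was therefore not tested. No listed site was found in the windows of RRM1, RRM2, PRIM1, FEN1, POLD1, MCM10, RFC2, RFC4, RFC5, RPA1, CCNE1, CHAF1A or CHAF1B, which says only that these letters are not in those windows.

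Summed over the 40 members, expression was 1052 FPKM in the imatinib population, 859.5 FPKM in the nilotinib population, 1111 FPKM in the GNF-2 population, 1067 FPKM in Clone 1, 1041 FPKM in Clone 2, 996.8 FPKM in Clone 3 and 731.0 FPKM in Clone 4, against 1221 FPKM in the vehicle population. Every resistant library lay below vehicle, and Clone 4 was lowest. Vehicle was the highest of the 8 libraries for 14 members and Clone 4 the lowest for 25, whereas over all tested genes vehicle was highest for 13.9% and Clone 4 lowest for 19.3%. The members did not move as a block. Mean levels over the 8 libraries ran from 89.6 FPKM for PCNA, 80.7 FPKM for MCM4, 64.2 FPKM for MCM7 and 59.5 FPKM for CDT1 down to 3.44 FPKM for E2F2 and 2.44 FPKM for CCNE1. RPA1, a subunit of the protein that coats single-stranded DNA, varied least, between 16.0 FPKM in Clone 4 and 19.97 FPKM in the GNF-2 population.

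**Figure D1:**
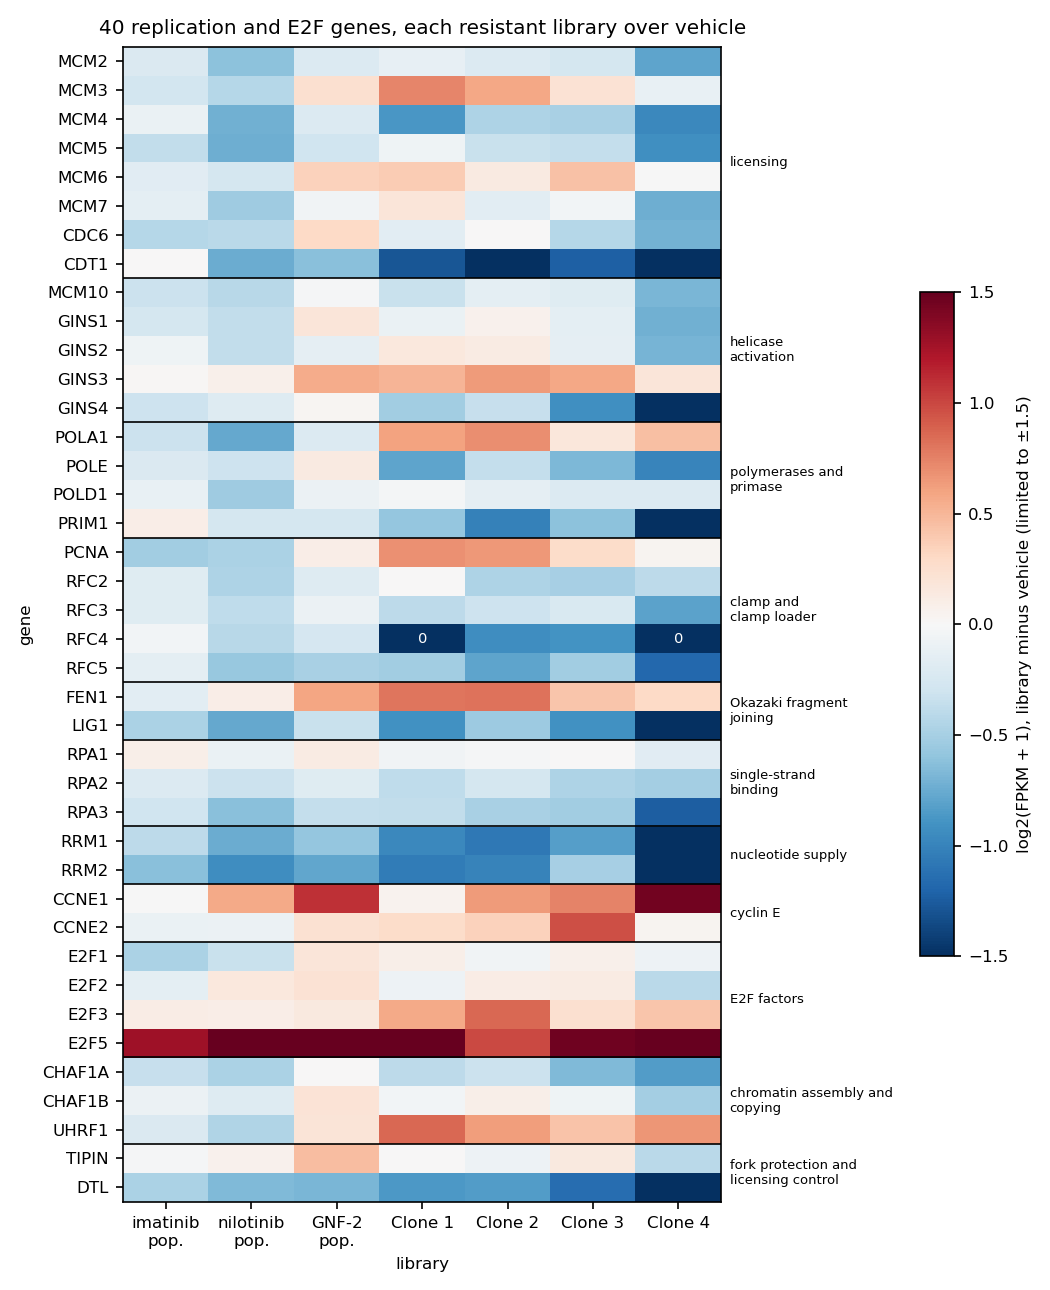
Heat map of the 40 members (down the page, grouped by role) in the 7 resistant libraries (across). Colour is log2(FPKM + 1) in the library minus that in vehicle, blue lower and red higher, and 0 marks RFC4 where it was listed at 0 FPKM. E2F5 is red in all 7 columns, RRM1, RRM2 and DTL are blue in all 7, and the Clone 4 column is the bluest, with 21 members at least 1.5-fold lower (20 without RFC4), against 21.6% of all tested genes.

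Against vehicle, 14 members were lower in all 7 resistant libraries, against 13.9% of all tested genes. They were the helicase subunits MCM2, MCM4 and MCM5, MCM10, the polymerase delta catalytic subunit POLD1, the clamp loader subunits RFC3, RFC4 and RFC5, DNA ligase 1 (LIG1), RPA2 and RPA3, both ribonucleotide reductase genes RRM1 and RRM2, and DTL, which directs the destruction of CDT1. RFC4 was listed at 0 in Clones 1 and 4, and without it the count is 13. Higher in all 7 were 3 members, GINS3, E2F3 and E2F5, against 19.8% of all tested genes. None was at least 1.5-fold lower in all 7 (1.09% of all tested genes), and only E2F5 was at least 1.5-fold higher in all 7 (0.507%). With FPKM rescaled by median ratios, 17 members were lower in all 7, 13 of them from the list above, and E2F5 alone was higher in all 7. Quantile normalization gave 15 lower and 2 higher, E2F3 and E2F5. The share of all tested genes on these 2 scales is not given here, so the changed counts are not read as a result about the members.

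E2F5 had 10.7 FPKM in the imatinib population, 13.7 FPKM in the nilotinib population, 15.6 FPKM in the GNF-2 population, 14.0 FPKM in Clone 1, 8.52 FPKM in Clone 2, 12.3 FPKM in Clone 3 and 23.4 FPKM in Clone 4, against 3.81 FPKM in vehicle. The lowest resistant library, Clone 2, was still above vehicle, and Clone 4 was highest. The limma log2 difference was 1.47 (SE 0.35) for the GNF2-resistant group and 1.45 (SE 0.35) for the catalytic-resistant group, each n = 3 against 1 vehicle library, and neither passed the adjustment over all genes (limma adjusted p = 0.420 and 1). The activators lay nearer to vehicle. E2F1 lay between 4.09 FPKM in the imatinib population and 7.01 FPKM in the GNF-2 population, with vehicle inside that range at 6.04 FPKM. E2F2 also spanned 2.33 FPKM in Clone 4 to 4.14 FPKM in the GNF-2 population, with 3.41 FPKM in vehicle. E2F3 was 24.2 to 25.1 FPKM in the 3 resistant populations and 26.9 to 41.7 FPKM in the clones, against 22.6 FPKM in vehicle, but was higher in all 7 libraries only on the deposited and quantile-normalized scales. The FPKM ratio of E2F5 to E2F1 was 1.47 (Clone 2) to 4.12 (Clone 4) in the resistant libraries and 0.631 in vehicle.

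Ribonucleotide reductase was lower in every resistant library. RRM2, the small subunit whose level follows S phase, had 42.5, 34.0 and 37.9 FPKM in the imatinib, nilotinib and GNF-2 populations and 31.3, 32.6, 46.5 and 22.8 FPKM in Clones 1 to 4, against 66.1 FPKM in vehicle. RRM1, the large subunit, had 57.5, 45.0 and 50.6 FPKM in the imatinib, nilotinib and GNF-2 populations and 38.5, 35.6, 42.4 and 23.2 FPKM in Clones 1 to 4, against 76.0 FPKM in vehicle. Clone 4 was the lowest library for both genes, and no resistant library reached vehicle. The GNF2-resistant group differed from vehicle by -0.95 (SE 0.23) for RRM2 and by -0.87 (SE 0.27) for RRM1 (limma adjusted p = 0.420 and 0.436). The catalytic-resistant group differed by -0.69 (SE 0.23) and -0.66 (SE 0.27), also not past the threshold (limma adjusted p = 1 for both). DTL had 23.9, 20.8 and 20.5 FPKM in the imatinib, nilotinib and GNF-2 populations and 17.99, 18.2, 14.6 and 9.66 FPKM in Clones 1 to 4, against 33.4 FPKM in vehicle. LIG1, which seals Okazaki fragments, spanned 10.7 FPKM (Clone 4) to 25.4 FPKM (GNF-2 population) in the resistant libraries, against 32.4 FPKM in vehicle. FEN1, the nuclease that trims the same fragments before ligation, was above vehicle in all but the imatinib population: it had 16.2, 19.7 and 28.0 FPKM in the imatinib, nilotinib and GNF-2 populations and 32.8, 32.9, 24.6 and 22.7 FPKM in Clones 1 to 4, against 18.3 FPKM in vehicle.

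**Figure D2:**
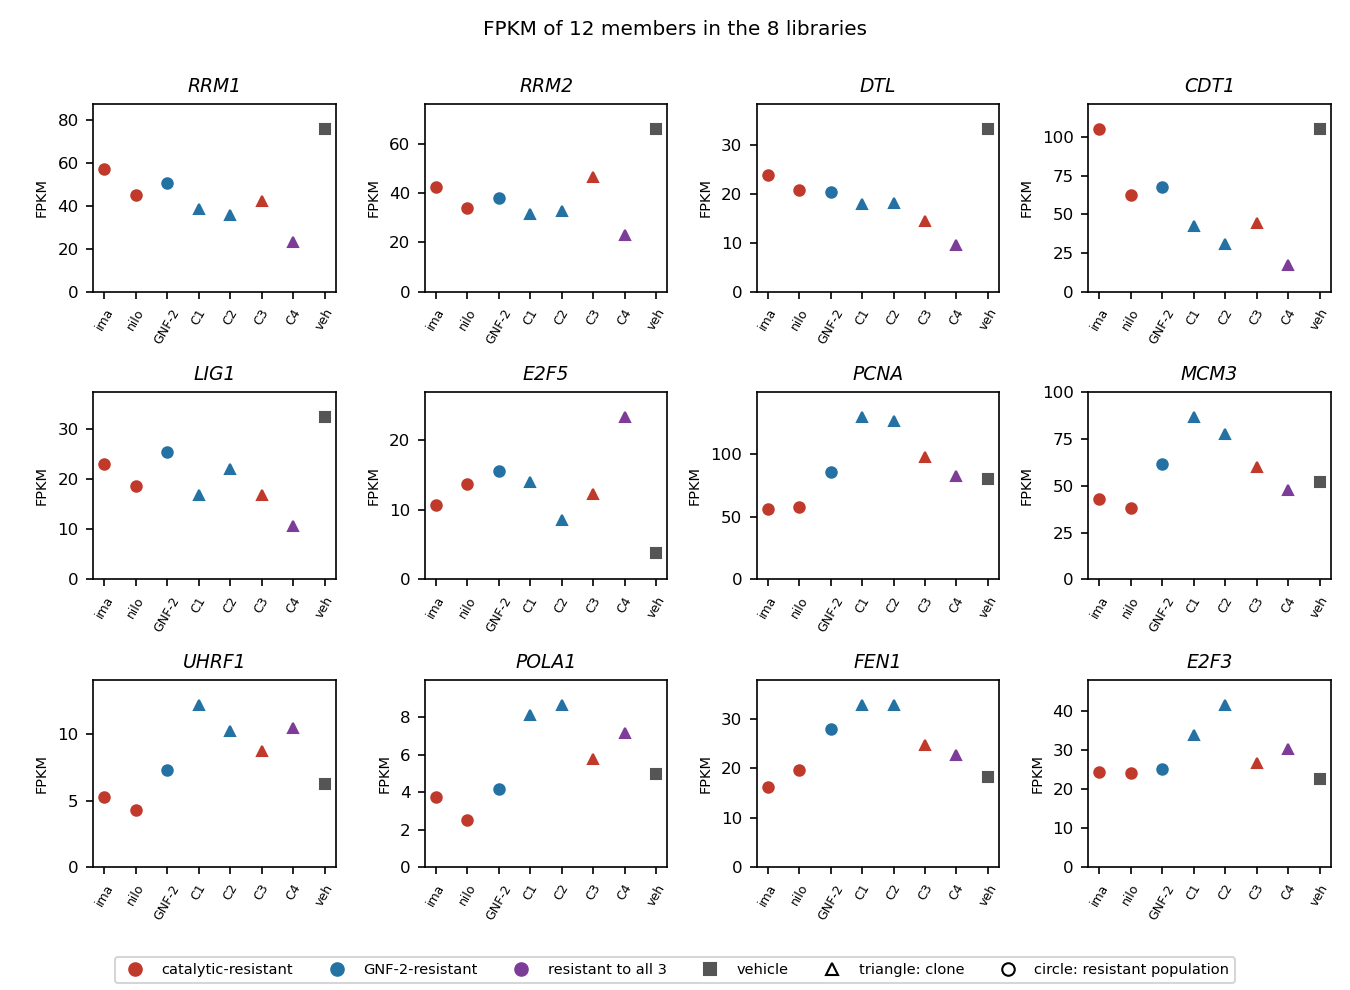
FPKM (vertical axis, from 0) of 12 members in each of the 8 libraries (horizontal axis: ima, nilo and GNF-2 are populations, C1 to C4 the clones, veh vehicle). Colour marks the resistance group and triangles the clones. Vehicle is the highest point for RRM1, RRM2, DTL and LIG1 and the lowest for E2F5 and E2F3, while all 4 clones are above all 3 resistant populations for UHRF1 and POLA1.

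Tested as groups against vehicle, no member passed limma at an adjusted p of 0.05. For the GNF2-resistant group (n = 3) against vehicle (n = 1), 0 of 40 members were called, where 0.0929% of all tested genes were, and at an unadjusted p under 0.05 there were 2 members higher (E2F5 and FEN1), where 6.64% of all tested genes were, and 4 lower (RRM2, RRM1, DTL and RFC5), where 4.47% were. Of the members, 19 had a positive and 21 a negative difference, with a median of -0.04, against a median of 0.04 over all tested genes. FEN1 differed by 0.74 (SE 0.26, adjusted p = 0.441), GINS3 by 0.57 (SE 0.31, adjusted p = 0.518), DTL by -0.79 (SE 0.29, adjusted p = 0.441) and RFC5 by -0.60 (SE 0.25, adjusted p = 0.449), all by limma. For the catalytic-resistant group (n = 3) against the same vehicle library, 0 of 40 were called, where 0.0338% of all tested genes were, and at an unadjusted p under 0.05 there was 1 member higher (E2F5), where 1.39% of all tested genes were, and 4 lower, where 1.3% were. Here 31 of 40 members had a negative difference and the median was -0.28, against 0.02 over all tested genes. DTL differed by -0.76 (SE 0.29) and LIG1 by -0.72 (SE 0.29), both with a limma adjusted p of 1. Both comparisons rest on the same single vehicle library, so their likeness is not independent.

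Each resistant population was also set against vehicle, library against library and without a test, calling a member at 1.5-fold or more. In the imatinib population 1 member was higher, E2F5 (3.87% of all tested genes), and 1 lower, RRM2 (5.14%). Still, 34 of 40 differences were negative, where 42.0% of all tested genes were. Their median was -0.18, against 0.05 over all tested genes. In the nilotinib population E2F5 alone was higher (9.74%) and 10 were lower (5.47%), the 6 largest being RRM2 (-0.94), POLA1 (-0.77), LIG1 (-0.77), RRM1 (-0.74), CDT1 (-0.74) and MCM5 (-0.73). In the GNF-2 population 3 were higher (16.1%), namely E2F5 (1.79), CCNE1 (1.09) and FEN1 (0.59), and 3 lower (7.63%), namely RRM2 (-0.79), DTL (-0.68) and CDT1 (-0.63). The median member difference from vehicle was -0.41 for nilotinib and -0.00493 for GNF-2, against 0.07 and 0.12 over all tested genes. The 2 cyclin E genes, whose products start S phase with CDK2, differed from each other. CCNE1 had 1.17, 2.24 and 3.65 FPKM in the imatinib, nilotinib and GNF-2 populations and 1.26, 2.40, 2.64 and 4.94 FPKM in Clones 1 to 4, against 1.18 FPKM in vehicle. CCNE2 had 6.57, 6.65 and 8.53 FPKM in the 3 populations and 8.82, 9.31, 14.8 and 7.33 FPKM in Clones 1 to 4, against 7.12 FPKM in vehicle. CCNE1 was thus highest in Clone 4 and CCNE2 in Clone 3.

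The comparison of resistance to a catalytic with resistance to an allosteric inhibitor, 3 libraries against 3, gave no called member, against 0.0338% of all tested genes, and at an unadjusted p under 0.05 there were 0 members higher (2.32% of all tested genes) and 4 lower (2.55%). Groups did not overlap for 7 members that were lower in the catalytic-resistant libraries (6.82% of all tested genes) and for 0 that were higher (4.08%). Of 40 differences, 32 were negative and the median was -0.16, against -0.01 over all tested genes. MCM3 averaged 47.1 ± 11.7 FPKM in catalytic-resistant and 75.4 ± 12.9 FPKM in GNF2-resistant libraries (SD, n = 3 each), a limma log2 difference of -0.68 (SE 0.22, adjusted p = 0.846). FEN1 averaged 20.2 ± 4.22 FPKM in catalytic-resistant and 31.2 ± 2.79 FPKM in GNF2-resistant libraries (SD, n = 3 each), a difference of -0.62 (SE 0.18, limma adjusted p = 0.846). CDC6, the licensing ATPase, averaged 10.5 ± 0.122 FPKM in catalytic-resistant and 15.1 ± 2.59 FPKM in GNF2-resistant libraries (SD, n = 3 each), a difference of -0.47 (SE 0.16, limma adjusted p = 0.846). GINS1 differed by -0.31 (SE 0.16, limma adjusted p = 0.846). None of these differences held up against the adjustment. The GNF2-resistant group also held more clones than the catalytic-resistant group, so inhibitor class and share of clones are not fully separated here.

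Clones against resistant populations, 4 libraries against 3, was the comparison in which members passed the test. POLA1, the catalytic subunit of the polymerase that starts each strand together with primase, had 8.12, 8.68, 5.75 and 7.17 FPKM in Clones 1 to 4, against 3.77, 2.51 and 4.17 FPKM in the imatinib, nilotinib and GNF-2 populations. UHRF1, which guides the maintenance methyltransferase to newly copied DNA, had 12.2, 10.2, 8.76 and 10.5 FPKM in Clones 1 to 4, against 5.25, 4.32 and 7.34 FPKM in the imatinib, nilotinib and GNF-2 populations. For both genes every clone was above every resistant population. POLA1 averaged 7.43 ± 1.28 FPKM in clones (SD, n = 4) and 3.48 ± 0.867 FPKM in resistant populations (SD, n = 3), and rose by 0.92 (SE 0.20, limma adjusted p = 0.0372). UHRF1 averaged 10.4 ± 1.42 FPKM in clones (SD, n = 4) and 5.64 ± 1.54 FPKM in resistant populations (SD, n = 3), and rose by 0.80 (SE 0.19, limma adjusted p = 0.0462). These were the only members called, 2 of 40, both higher, where 1.68% of all tested genes were called higher. No member was called lower, where 5.78% of all tested genes were. Over both directions 7.46% of all tested genes were called, so the members' share is near that pooled background. Both calls were narrow. Without any one of the imatinib, nilotinib or GNF-2 populations or Clones 1, 2 or 4, limma's adjusted p was 0.0527 to 0.141 for POLA1 and 0.0504 to 0.170 for UHRF1, and without Clone 3 it was 0.0383 for POLA1 and 0.0546 for UHRF1. With the resistance group as a covariate it was 0.100 for POLA1 and 0.109 for UHRF1, and with no filter on low genes 0.0616 and 0.0709. With the population of origin as a block, a fit added after seeing the data on the 4 clones and the GNF-2 and imatinib populations, POLA1 differed by 0.68 (limma adjusted p = 0.209) and UHRF1 by 0.57 (limma adjusted p = 0.224), so neither was called, and the calls over all genes were 11 in place of 883. POLA1 lies at chrX:24712057-25015102 and UHRF1 at chr19:4909509-4962165 on GRCh37 as the deposited table gives them; a value covers the exons of the whole gene.

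Groups did not overlap for 3 members higher in the clones, POLA1, UHRF1 and E2F3 (8.17% of all tested genes), and for 7 lower, CDT1, PRIM1, GINS4, POLE, RRM1, DTL and RFC4 (18.1%). Out of 40 members, both counts are near the share over all tested genes. E2F3 averaged 33.2 ± 6.37 FPKM in clones (SD, n = 4) and 24.6 ± 0.476 FPKM in resistant populations (SD, n = 3), a difference of 0.40 (SE 0.16, limma adjusted p = 0.151). CDT1 had 42.4, 30.9, 44.3 and 17.4 FPKM in Clones 1 to 4, against 105.3, 62.5 and 67.7 FPKM in the imatinib, nilotinib and GNF-2 populations, and the imatinib population was level with the 105.1 FPKM of vehicle. Its difference of -1.24 (SE 0.34) had a limma adjusted p of 0.0656. PRIM1, the primase catalytic subunit and a partner of POLA1, had 17.9, 12.9, 17.4 and 5.62 FPKM in Clones 1 to 4, against 29.2, 22.5 and 22.4 FPKM in the imatinib, nilotinib and GNF-2 populations, a difference of -0.93 (SE 0.36, limma adjusted p = 0.149). The 2 catalytic genes of the polymerase alpha and primase complex therefore lay on opposite sides in the clones. Only POLA1 was called, and it was not called with the population of origin as a block. POLE, the leading-strand polymerase, averaged 8.005 ± 1.71 FPKM in clones (SD, n = 4) and 12.4 ± 2.27 FPKM in resistant populations (SD, n = 3), a difference of -0.58 (SE 0.19, limma adjusted p = 0.102). RRM1 differed by -0.56 (SE 0.21, limma adjusted p = 0.139). PCNA had 129.8, 126.6, 97.5 and 82.7 FPKM in Clones 1 to 4, against 55.9, 57.8 and 86.0 FPKM in the imatinib, nilotinib and GNF-2 populations, and Clone 4 overlapped the GNF-2 population. RFC4, a subunit of the loader that puts PCNA on DNA, was listed at 0 in Clones 1 and 4 and had 15.1 FPKM in Clone 2 and 15.5 FPKM in Clone 3, against 28.9, 21.9 and 24.7 FPKM in the imatinib, nilotinib and GNF-2 populations. A 0 in such a table can be a failed estimate, which cannot be checked without the reads, so no mean or test is given for RFC4.

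**Figure D3:**
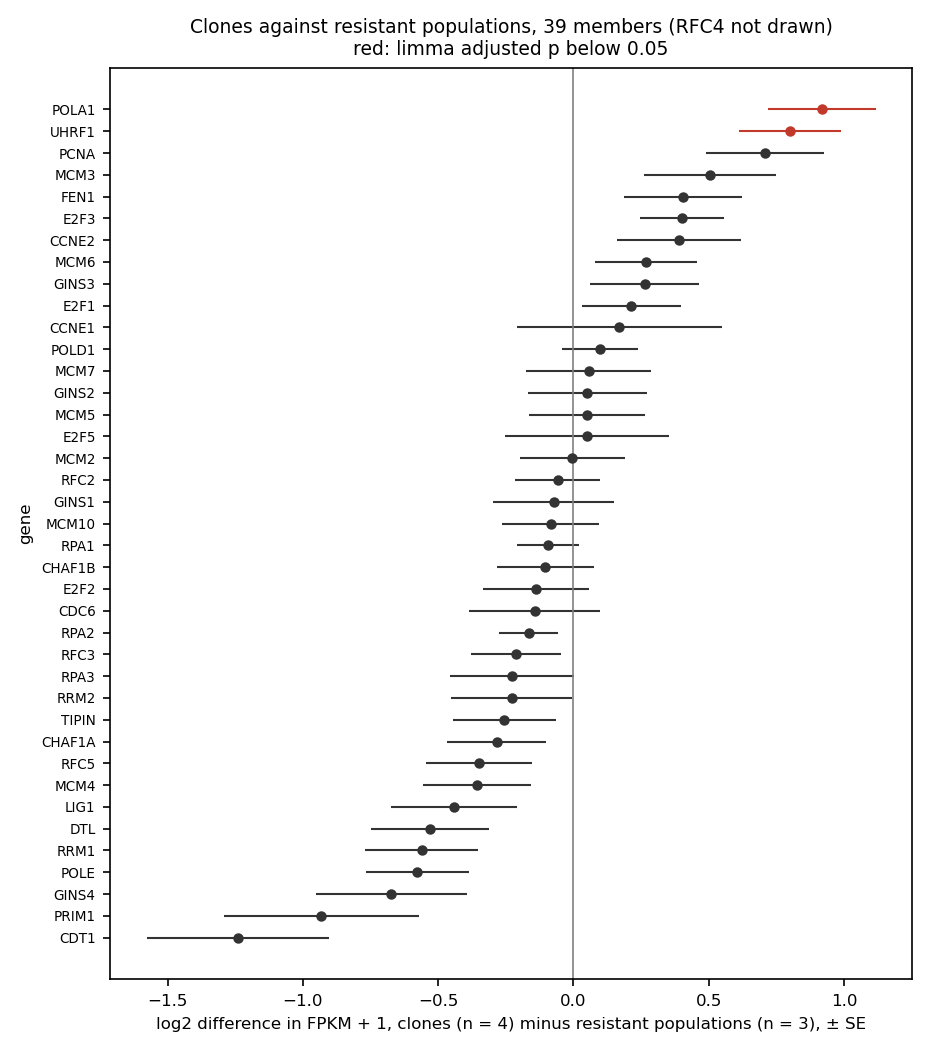
Log2 difference in FPKM + 1, clones (n = 4) minus resistant populations (n = 3), for 39 members (down the page, sorted), with bars of ± 1 SE from limma. POLA1 (0.92) and UHRF1 (0.80), in red, passed an adjusted p of 0.05, and CDT1 (-1.24) and PRIM1 (-0.93) lie at the other end.

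The median member difference between clones and resistant populations was -0.09, against -0.08 over all tested genes, and 16 members were positive and 24 negative. Scaling moved this: the median over all tested genes was 0.03 after rescaling by median ratios, a shift above 0.1, and the members' median became 0.02. Of all called genes 199 were higher and 684 lower as deposited, and the lower numbered 473 of 865 after rescaling and 491 of 927 after quantile normalization. POLA1 and UHRF1 were called on all of these scales.

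The 6 subunits of the MCM helicase, which form 1 ring, did not change in step. Clones 1 to 4 had 87.0, 77.7, 60.3 and 47.8 FPKM of MCM3, and the imatinib, nilotinib and GNF-2 populations 42.8, 38.2 and 61.5 FPKM, against 51.9 FPKM in vehicle. Clones 1 to 4 had 59.6, 79.4, 77.7 and 55.7 FPKM of MCM4, and the same populations 102.4, 66.3 and 94.7 FPKM, against 109.6 FPKM in vehicle. MCM3 was thus highest in Clone 1 and MCM4 in vehicle. As a share of the 6-gene sum, MCM4 was 15.7% in Clone 1, 22.4% to 23.0% in the other clones and 26.0% to 31.0% in the resistant populations, against 28.9% in vehicle, and MCM3 was 17.4% to 22.9% in the clones and 12.9% to 16.9% in the resistant populations, against 13.7% in vehicle. The ratio of MCM3 to MCM4 was 0.776 to 1.46 in the clones and 0.418 to 0.650 in the resistant populations, against 0.473 in vehicle. Multiplying a whole library by a factor leaves this ratio as it is, and clones and populations did not overlap in it. It is 1 pair among the 6 subunits, taken from these same data, and ratios of the other pairs were not compared. Clones and resistant populations overlapped in MCM3 alone and in MCM4 alone. MCM2 kept a share between 11.9% and 13.4% in all 8 libraries.

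**Figure D4:**
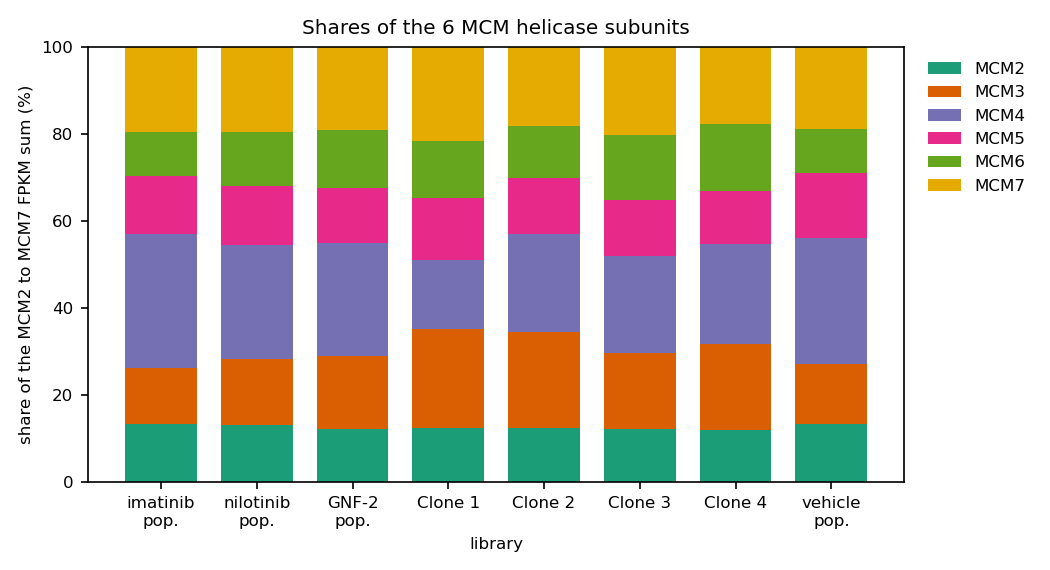
Stacked bars of the share of each MCM subunit (%) in the MCM2 to MCM7 FPKM sum, 1 bar per library, vehicle at the right. The MCM3 segment takes 17.4% to 22.9% in the clones, against 12.9% to 16.9% in the resistant populations, and the MCM4 segment is smallest in Clone 1 (15.7%).

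Set against the population it came from, each clone had its own pattern, given here as fold changes between single libraries without a test. Clones 1, 2 and 4 share the GNF-2 population in these ratios. Clone 1 had 3 members at least 1.5-fold higher (6.41% of all tested genes), POLA1 (0.82), UHRF1 (0.67) and PCNA (0.59), and 5 lower (20.9%), RFC4, which was listed at 0 there, CCNE1 (-1.04), POLE (-0.94), CDT1 (-0.66) and MCM4 (-0.66). Clone 2 had 2 higher (9.15%), POLA1 (0.91) and E2F3 (0.71), and 4 lower (17.7%), CDT1 (-1.11), E2F5 (-0.80), PRIM1 (-0.75) and RFC4 (-0.68). Clone 3, set against the imatinib population, had 5 higher (11.2%), CCNE2 (1.06), PCNA (0.79), CCNE1 (0.75), UHRF1 (0.64) and MCM6 (0.62), and 5 lower (19.2%), CDT1 (-1.23), RFC4 (-0.86), PRIM1 (-0.72), DTL (-0.68) and GINS4 (-0.60). CDT1 was on the lower side in every clone, and without RFC4 the lower members numbered 4 in Clone 1, 3 in Clone 2 and 4 in Clone 3.

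Clone 4, resistant to all 3 inhibitors, had the lowest levels of most members. Against the GNF-2 population 23 of 40 members were at least 1.5-fold lower, where 20.1% of all tested genes were, and 1 was higher, POLA1 (0.66), where 9.97% were. The median member difference was -0.65, against -0.08 over all tested genes. Without RFC4, listed at 0 in Clone 4, 22 were lower, and the lowest were CDT1 (-1.90), PRIM1 (-1.82), GINS4 (-1.56), LIG1 (-1.18) and POLE (-1.13). GINS4, a subunit of the GINS ring that completes the active helicase, had 4.58 FPKM in Clone 4, against 15.5 FPKM in the GNF-2 population. Rescaling by median ratios left 14 members lower and 3 higher, and the share of all tested genes on that scale is not given here. Against the mean of Clones 1 and 2, its sister clones, 16 members were lower (11% of all tested genes) and 15 without RFC4, among them PRIM1 (-1.31), GINS4 (-1.10), CDT1 (-1.03), DTL (-0.84) and GINS2 (-0.84), and 2 higher (10.2%), CCNE1 (1.07) and E2F5 (0.99). Clone 4 is 1 library, of the lowest estimated depth together with the GNF-2 population, and whether depth has a part in its levels was not tested.

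Of 58 further replication and E2F pathway genes, all tested, 43 had a negative difference in GNF2-resistant libraries against vehicle (median -0.28) and 48 in catalytic-resistant libraries against vehicle (median -0.32), none called by limma; at an unadjusted p under 0.05, 9 were lower and 1 higher in GNF2-resistant libraries (4.47% and 6.64% of all tested genes), and 7 lower and 0 higher in catalytic-resistant libraries (1.3% and 1.39%). TK1, the S-phase thymidine kinase, was 37.5 to 57.0 FPKM in the resistant libraries, against 90.7 FPKM in vehicle. E2F6, a repressor that acts without pocket proteins, was 4.47 to 10.4 FPKM in the resistant libraries, against 3.72 FPKM in vehicle. Its difference in GNF2-resistant libraries was 1.02 (SE 0.29) and was not called. E2F4 was 21.6 to 49.5 FPKM in the resistant libraries, against 20.9 FPKM in vehicle. E2F6 and E2F4 were thus above vehicle in all 7. Below vehicle in all 7 were E2F7 (1.64 to 3.15 FPKM, against 3.86 FPKM) and E2F8 (2.82 to 6.14 FPKM, against 6.23 FPKM). In clones against resistant populations 2 of the 58 were called, both lower, where 5.78% of all tested genes were called lower: POLD4, the small polymerase delta subunit (-1.19, SE 0.17, limma adjusted p = 0.0104), and the pocket protein RBL2 (-0.53, SE 0.13, limma adjusted p = 0.0484). POLD4 lost its call without the imatinib or the nilotinib population (limma adjusted p up to 0.0583), and RBL2 without any one resistant library but Clone 3, with a pseudocount of 0.1, after either rescaling, with no variance trend and with the covariate (up to 0.166). Neither was called with the population of origin as a block (0.112 for POLD4 and 0.211 for RBL2 by limma). The list's median there was -0.22, and 13 of 58 differences were positive.

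Of the mitosis genes, all 19 tested had a negative difference against vehicle in both resistance groups, with a median of -0.97 in GNF2-resistant and -0.55 in catalytic-resistant libraries, none called by limma, and at an unadjusted p under 0.05 there were 13 lower in GNF2-resistant libraries (4.47% of all tested genes) and 2 in catalytic-resistant libraries (1.3%). In clones against resistant populations all 19 were again negative (median -0.66), and CENPE (-1.32), TTK (-1.23) and TOP2A (-0.80) were called lower (limma adjusted p = 0.0176, 0.0364 and 0.0444), where 5.78% of all tested genes were. Each lost its call without any one of the 3 resistant populations and with the covariate (limma adjusted p up to 0.0832 for CENPE, 0.142 for TTK and 0.161 for TOP2A); TTK also without Clone 1 and with no filter, and TOP2A without Clone 1 or Clone 4, with no filter, after rescaling by median ratios and with no variance trend. With the population of origin as a block the limma adjusted p was 0.145 for CENPE, 0.214 for TTK and 0.206 for TOP2A. CDK1, the mitotic kinase, had 91.8, 72.5 and 61.2 FPKM in the imatinib, nilotinib and GNF-2 populations and 38.3, 45.0, 54.5 and 27.1 FPKM in Clones 1 to 4, against 139.5 FPKM in vehicle. Between catalytic- and GNF2-resistant libraries the lists had medians of opposite sign, 0.39 for mitosis genes and -0.16 for the members. These groups also differ in their share of clones, and its part in the 2 medians was not tested. Of 8 replication-dependent histone genes tested, 7 were positive in clones against resistant populations (median 0.48), and HIST1H1C was called lower (-0.70, limma adjusted p = 0.0341), a call lost without any one resistant population or Clone 1, after rescaling by median ratios, with the covariate (up to 0.137) and with the population of origin as a block (0.202). Their summed level was 197.7 FPKM in Clone 4, 65.0 to 89.7 FPKM in the other resistant libraries and 49.95 FPKM in vehicle. The sum was thus highest in the library whose replication genes were lowest, but HIST1H2BK alone made up 107.6 FPKM of it. HIST1H1C was highest in the imatinib population (25.9 FPKM, against 17.2 FPKM in Clone 4). HIST2H2BE and HIST1H3D were highest in Clone 2, and the other histone genes tested in Clone 4. Histone messages normally lack a poly(A) tail, and the part of RNA selection in these levels was not tested.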

How the data were processed

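RNA of 8 KCL-22 libraries was analysed from 1 table of values per gene. Its header names no unit. From the tools in the submitters' processing notes (TopHat 1.3 and Cufflinks 1.3, on GRCh37) and from the values, the deposited numbers were taken as the authors' FPKM. No read counts were used, and depth is an estimate. The 40 members, the gene lists and the tests were chosen with earlier results of these data known. Of the lists, NUSAP1 and HIST2H2AA3 found no row. Of 31402 entries, 70 lacked a value; 401 of the 11843 tested genes were listed at 0 in at least 1 library.

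Log2(FPKM + 1) of genes with a mean of at least 1 FPKM was fitted with limma 3.58.1 in R 4.3.3 (moderated by a mean-variance trend, Benjamini-Hochberg over all 11843 genes, threshold 0.05, two-sided). All 8 libraries entered each fit, with 1 mean per resistance group (4 residual degrees of freedom) or per kind, clone, resistant population or vehicle (5); vehicle and Clone 4 borrowed the spread of the other groups. The fit was tested on simulated data. Statistics are given for members past the threshold and for up to 4 members each way of smallest p whose groups did not overlap; between single libraries, up to 6 each way at 1.5-fold or more. Alternatives were the pseudocount, the filter, the scaling, the variance trend, covariates, the fold and leaving out each resistant library; a count without RFC4, the fits without vehicle where vehicle is not compared, and a fit of 6 libraries with the population of origin as a block (3 residual degrees of freedom) were added after seeing the data. Promoters were read from RefSeq with Python 3.11.15, and no genome was used.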

Additional observations from a re-analysis of the deposited data

How the results depend on the processing

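No member was called against vehicle, or between catalytic- and GNF2-resistant libraries, under any alternative run. In clones against resistant populations the 2 calls became 0 without a filter or with resistance group as a covariate, 0 with the population of origin as a block, and 0 to 2 when libraries were left out (2 without vehicle, 0 to 1 without a resistant library); without RFC4 they stayed 2. The cause was not tested. The members' median there was 0.0187 after rescaling by median ratios and 0.0224 after quantile normalization, and ran from -0.165 to 0.0221 when libraries were left out, the positive value being without the GNF-2 population. Against vehicle the GNF2-resistant median was -0.168 for genes of at least 5 FPKM. Leaving out libraries gave a catalytic-against-GNF2 median of -0.202 to -0.0593, the highest without the GNF-2 population. The members given with limma statistics kept the sign of that difference under every setting run. Others did not: MCM2 kept its sign in 12 of 18 settings in clones against populations.

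Between single libraries a 2-fold threshold left 0 members lower in the imatinib, nilotinib and GNF-2 populations against vehicle. It left 0 higher and 2 lower in Clone 1, 0 and 1 in Clone 2, 1 and 1 in Clone 3 and 0 and 9 in Clone 4 against their populations, and 1 and 4 in Clone 4 against Clones 1 and 2. A pseudocount of 0.1 gave 2 higher in the nilotinib population and 9 in Clone 3. Rescaling by median ratios gave 5 lower in the GNF-2 population, 5 higher and 3 lower in Clone 1, 8 higher in Clone 3 and 3 higher and 14 lower in Clone 4 against the GNF-2 population. Quantile normalization gave 9 higher and 3 lower in Clone 3 and 4 higher in Clone 4 against the GNF-2 population. Shares of all tested genes under these settings are not given here, so whether these counts exceed that background cannot be read from them.

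Calls over all genes moved more. GNF2-resistant against vehicle gave 11, but 79 without a filter, 7 at 5 FPKM and 0 among genes above 0 in every library. Catalytic-resistant against vehicle gave 4, but 59, 2 and 0 under the same filters and 1 after either rescaling. Catalytic against GNF2 gave 4, but 2 at 5 FPKM and 0 among genes above 0 throughout. Clones against populations gave 883, but 238 with the covariate and 11 with the population of origin as a block. Leaving out libraries gave 1 to 12, 0 to 1, 1 to 8 and 125 to 1100 calls in these 4 comparisons. No paired analysis was possible by replicate number because the numbers were given in accession order and pair no libraries. With 1 library per condition, depth known only as an estimate and no counts, differences in low members such as CCNE1, GINS3 and E2F2 are the least certain.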
